A study of Drosophila melanogaster with 11 samples.

Results

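Turandot genes, Diedel and the JAK-STAT pathway form a secreted stress response of the fly, and 10 of its genes were looked up on Affymetrix Drosophila arrays of adult female heads. The members were the Turandot genes TotA, TotC, TotM and TotX, the secreted factor gene Diedel, the ligand gene upd3, the receptor gene dome, the kinase gene hop, the transcription factor gene Stat92E and the inhibitor gene Socs36E. A member was taken as measured where a probe set carried its current or older symbol in the platform annotation. That held for 4 of the 10 genes, TotC, Diedel, dome and Stat92E, each with 1 probe set among the 18952 of the table, which name 11982 genes singly, and all 4 passed the filter on low values. TotA, TotM, TotX, Socs36E, upd3 and hop matched no probe set in the annotation used here and were not analysed.

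All flies were w1118 females, placed on food soon after eclosion and killed together after 16 days, and each array held RNA of 20 pooled heads. The control group stayed on plain food (n = 3 arrays). The paraquat group had plain food for 10 days and then 5 mM paraquat in it for another 6 (n = 2, since the submitters excluded a degraded replicate 1). Paraquat is a herbicide whose redox cycling yields superoxide. The nicotine group had 0.1 mg/ml nicotine in its food throughout (n = 3), and the joint group had the same nicotine throughout with 5 mM paraquat for the last 6 days (n = 3). The study asked how paraquat and nicotine, alone and together, change expression in a fly model of Parkinson's disease. The labels describe each replicate as biological, with the heads of a sample taken from a single vial, and the p-values reflect the spread between such pools.

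In flies, cytokines of the Unpaired family bind the receptor Domeless, whose associated kinase Hopscotch activates the transcription factor Stat92E, and Socs36E is a target of the pathway that also restrains it. Turandot genes encode small secreted proteins that the fat body releases after infection, heat or oxidative stress, and their induction is known to need JAK-STAT and, in some settings, the kinase Mekk1 and the immune factor Relish. Diedel encodes a small secreted protein that is known to hold back the IMD immune pathway.

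Both measured genes for secreted proteins, Diedel and TotC, were lower in heads of paraquat-fed flies, on plain food and on nicotine, while the receptor and transcription factor genes were not called. Averaged over flies without and with nicotine, Diedel fell by 3.04 ± 0.56 log2 (SE, 8.25-fold) and TotC fell by 1.92 ± 0.40 log2 (3.78-fold). These were 2 of the 4 members called by limma at an adjusted p below 0.05, both lower, where 3.69% of the 9104 tested probe sets were called in either direction, 2.93% higher and 0.758% lower. The median change was -1.10 log2 over the 4 members, a value between those of TotC (-1.92) and Stat92E (-0.28), and -0.01 over all tested probe sets. The members were chosen with earlier results of these data known, so these shares and medians describe them and do not test them as a set. No nicotine contrast and no interaction was called for any member.

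Diedel varied widely among paraquat-free arrays and was lower on every paraquat-fed one. On plain food its log2 values were 10.91, 8.82 and 8.75 in replicates 1, 2 and 3, a mean of 9.49 ± 1.23 (SD, n = 3). In the paraquat group they were 5.70 and 6.99 in replicates 2 and 3 (6.35 ± 0.91, n = 2). Every paraquat-fed array without nicotine thus lay below every control array.

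On nicotine alone Diedel was at 9.04, 7.85 and 10.25 (9.05 ± 1.20, SD, n = 3). Of these, 9.04 and 10.25 lay inside the span of the control values and 7.85 lay below it. With both agents it was at 5.36, 6.42 and 6.54 (6.10 ± 0.65, n = 3). The highest paraquat-fed array, paraquat replicate 3, lay 0.85 log2 below the lowest paraquat-free array, nicotine replicate 2. TotC separated in the same way, by 0.46 log2, and 1.99% of the tested probe sets were lower without overlap in the 5 paraquat-fed arrays than in the 6 paraquat-free ones.

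TotC, a stress-induced Turandot gene, was high and even across the control arrays. Its log2 values on plain food were 14.51, 14.11 and 14.61 (14.41 ± 0.26, SD, n = 3). With paraquat they were 12.62 and 12.68 (12.65 ± 0.04, n = 2). The paraquat group lay below the control group without overlap for 3 of the 4 members, TotC, Diedel and Stat92E, an order that 12% of tested probe sets showed.

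Nicotine alone gave TotC values of 14.06, 13.51 and 13.85 (13.81 ± 0.28, SD, n = 3), each below the lowest control value. That order held for 2.38% of tested probe sets, and the nicotine change of TotC was not called. With both agents TotC was at 10.43, 13.05 and 11.72 (11.73 ± 1.31, n = 3). The joint group spread widest, and its replicate 2 lay above both paraquat arrays while its replicate 1 held the lowest value of all 11.

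**Figure D1:**
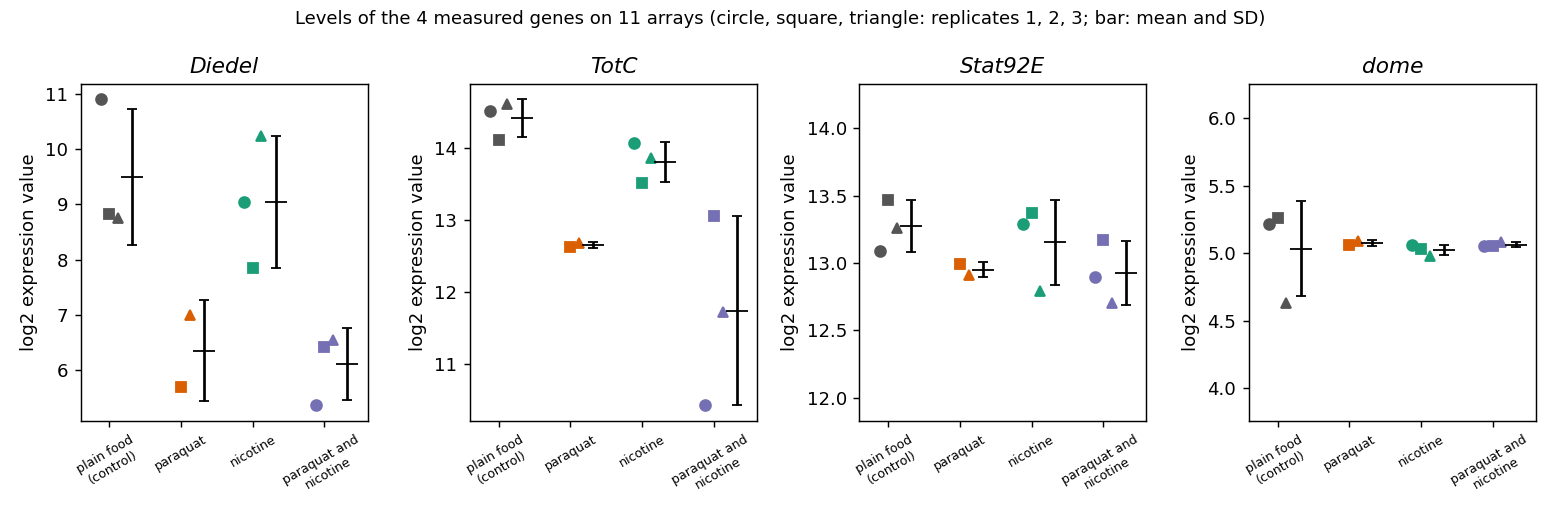
Log2 expression values of Diedel, TotC, Stat92E and dome (vertical axes) on each of the 11 arrays by exposure group (horizontal axis), with replicates 1, 2 and 3 as circle, square and triangle and the group mean ± SD as a bar beside them. All 5 paraquat-fed arrays lie below all 6 paraquat-free arrays for Diedel and TotC, while paraquat-fed and paraquat-free arrays overlap for Stat92E and dome.

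The averaged paraquat change had an adjusted p of 0.0181 for Diedel and 0.0299 for TotC (limma, two-sided, Benjamini-Hochberg over 9104 probe sets). Its 95% intervals ran from -4.29 to -1.80 log2 for Diedel and from -2.80 to -1.03 for TotC. By size Diedel was the 9th and TotC the 32nd most negative change of all tested probe sets.

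The direction was the same with and without nicotine, but neither contrast was called on its own. Without nicotine, Diedel was at -3.15 ± 0.83 log2 (adjusted p = 0.173, limma) and TotC at -1.76 ± 0.59 (adjusted p = 0.299). With nicotine, Diedel was at -2.94 ± 0.74 (adjusted p = 0.147) and TotC at -2.07 ± 0.53 (adjusted p = 0.151). Of all tested probe sets, 0.341% were called without nicotine and 0.45% with it. In each contrast 0 of the 4 members were called by limma and 2, Diedel and TotC, had an unadjusted p below 0.05. Such a p was reached by 960 of the 9104 tested probe sets without nicotine and by 1050 with it.

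The joint group against plain food gave the largest differences for both genes, -3.39 ± 0.74 log2 for Diedel (adjusted p = 0.0925, limma) and -2.68 ± 0.53 for TotC (adjusted p = 0.0684). Again 0 of 4 members were called, with 2 at an unadjusted p below 0.05, where 0.33% of tested probe sets were called. An unadjusted p below 0.05 was reached by 1501 of the 9104. The joint contrast shares its control arrays with the contrasts of either agent alone on plain food and its joint arrays with the paraquat contrast on nicotine, so these are not independent of each other.

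**Figure D2:**
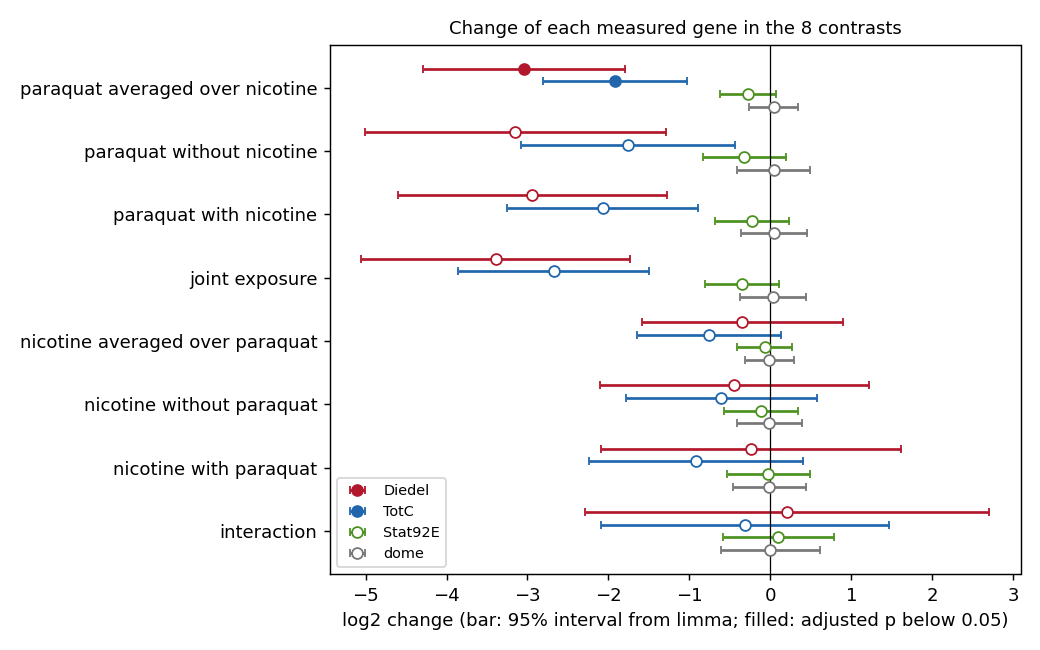
Log2 change (horizontal axis) of Diedel, TotC, Stat92E and dome in each of the 8 contrasts (vertical axis), with 95% intervals from limma and filled points where the adjusted p lay below 0.05. The 2 filled points are Diedel at -3.04 and TotC at -1.92 for paraquat averaged over nicotine.

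The nicotine changes of Diedel and TotC did not pass the test. Averaged over paraquat, TotC was at -0.76 ± 0.40 log2 (adjusted p = 0.833, limma, 95% interval from -1.65 to 0.13) and Diedel at -0.34 ± 0.56 (adjusted p = 0.887, interval from -1.59 to 0.90). For each of the 3 nicotine contrasts and the interaction, limma called 0 members and 0% of tested probe sets, and 0 members had an unadjusted p below 0.05. Such a p was reached by 336 of the 9104 tested probe sets for nicotine averaged over paraquat. The counts were 179 without paraquat, 275 with it and 112 for the interaction. The interaction, which is the paraquat change with nicotine minus that without it, was -0.31 ± 0.79 log2 for TotC (interval from -2.09 to 1.46) and 0.21 ± 1.11 for Diedel (from -2.28 to 2.70). Both intervals span negative and positive values, so an effect of nicotine on the paraquat response within them could not be told from none. The paraquat change without nicotine (-1.76 log2 for TotC, -3.15 for Diedel) was larger in size than the upper end for both genes.

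The estimates moved little when single arrays were left out, and the call of Diedel held more often than that of TotC. With 1 array left out at a time, Diedel ran from -3.37 to -2.69 log2 and kept its call in 8 of 11 cases, losing it without paraquat replicate 2 (adjusted p = 0.0789, limma), paraquat replicate 3 (0.0699) or nicotine replicate 1 (0.0520). TotC ran from -2.25 to -1.59 and kept its call in 2 of 11 cases, without joint replicate 1 (adjusted p = 0.0169) or joint replicate 2 (0.00199). In the other 9 cases its adjusted p lay between 0.0552 without nicotine replicate 2 and 0.151 without paraquat replicate 3.

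**Figure D3:**
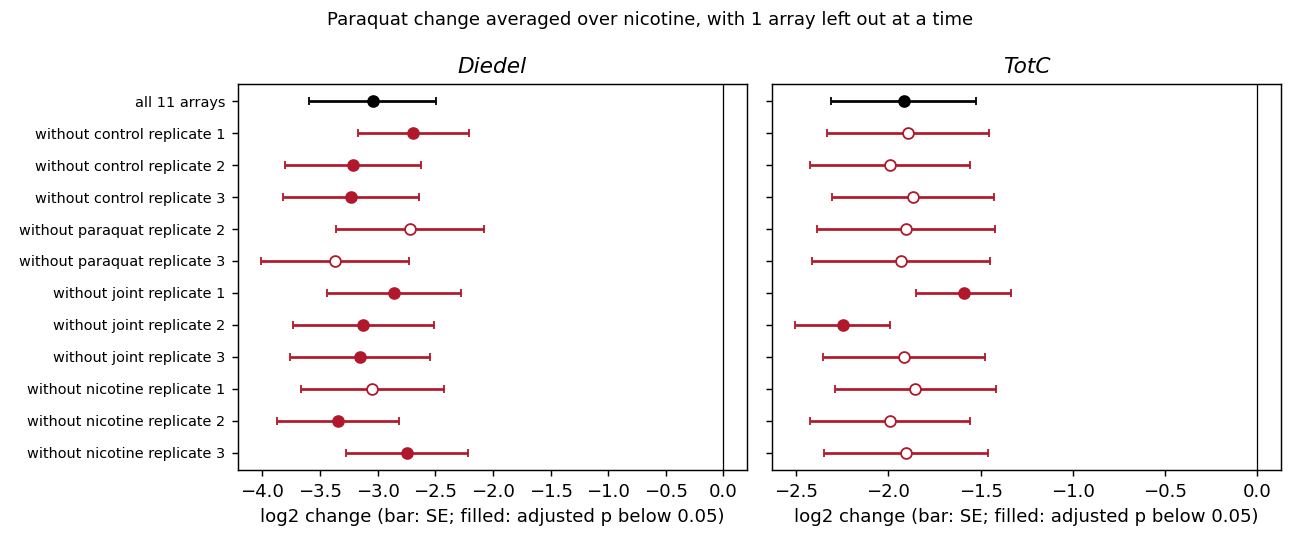
Log2 change with paraquat averaged over nicotine (horizontal axes, with SE) for Diedel and TotC, from all 11 arrays (black) and with each array left out in turn (red), filled where the adjusted p lay below 0.05. Estimates stay between -3.37 and -2.69 for Diedel and between -2.25 and -1.59 for TotC, and 8 and 2 of the 11 are filled.

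The array with the lowest Diedel and TotC values also stood apart in a measure of RNA quality. The labels name a kit that amplifies from the 3' end, and the difference between 3' and middle control probe sets of GAPDH and eIF-4a was 4.86 log2 for joint replicate 1. It lay between 1.39, for control replicate 3, and 3.18, for joint replicate 3, on the other 10 arrays. Its profile over all tested probe sets correlated with those of the other arrays at 0.914 on average, against 0.943 to 0.965 for the rest. Without joint replicate 1 the averaged paraquat change was -1.59 ± 0.26 log2 for TotC (adjusted p = 0.0169, limma) and -2.86 ± 0.58 for Diedel (0.0329). With the 3' minus middle difference as a covariate, a setting chosen after seeing the data, it was -1.45 ± 0.24 for TotC (adjusted p = 0.0215, limma) and -3.08 ± 0.64 for Diedel (0.0424). With the planned 3' minus 5' covariate it was -1.72 ± 0.40 for TotC (adjusted p = 0.0694, limma) and -3.38 ± 0.53 for Diedel (0.0185). The call of TotC thus depended on the measure used. By the 3' minus 5' difference joint replicate 1 (10.32 log2) did not stand apart from joint replicate 3 (10.34) or nicotine replicate 3 (10.12). On these arrays the 5' probe set of GAPDH read 2.11, 2.33 and 2.41, near the lowest level of the arrays. The 3' minus 5' difference could therefore hardly rank them. By it control replicate 3 stood apart, at 5.87, with control replicate 2 next lowest at 8.34.

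**Figure D4:**
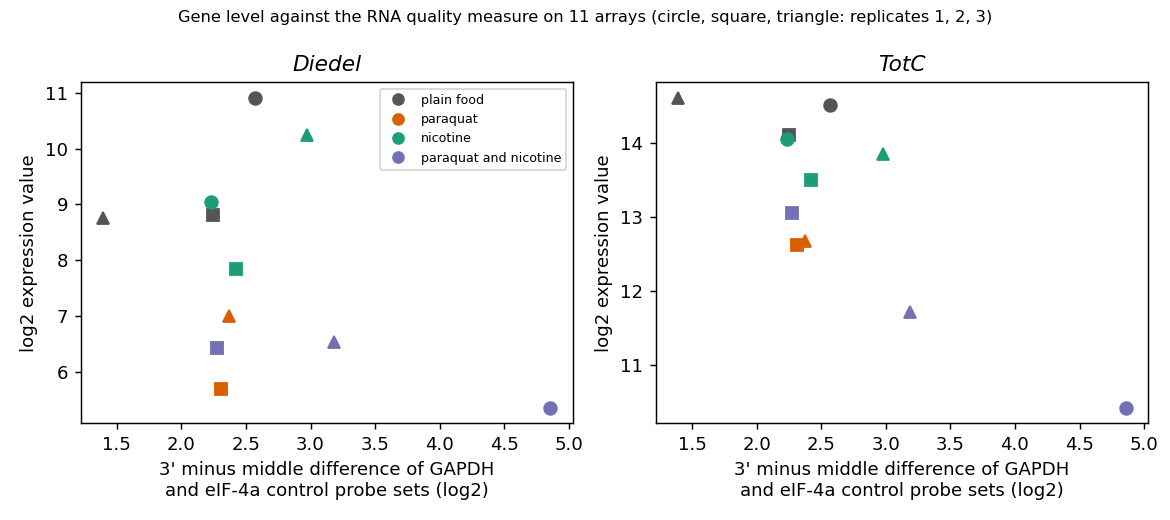
Log2 expression values of Diedel and TotC (vertical axes) against the 3' minus middle difference of the GAPDH and eIF-4a control probe sets in log2 (horizontal axes) on the 11 arrays, coloured by exposure group. Joint replicate 1 lies apart at 4.86. For both genes all 5 paraquat-fed arrays lie below all 6 paraquat-free ones. Arrays alike in this difference, as the 3 paraquat-fed and 3 paraquat-free ones between 2.23 and 2.42, must therefore show the same order.

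Neither measured gene of the core signalling chain was called. Stat92E, the pathway's transcription factor, had log2 values of 13.09, 13.47 and 13.26 on plain food (13.27 ± 0.19, SD, n = 3) and of 12.99 and 12.91 with paraquat (12.95 ± 0.06, n = 2). It was at 13.29, 13.37 and 12.79 on nicotine (13.15 ± 0.31, n = 3) and at 12.90, 13.17 and 12.71 with both agents (12.93 ± 0.23, n = 3). Both paraquat arrays lay just under the lowest control array, while the nicotine and joint groups overlapped. The averaged paraquat change was -0.28 ± 0.15 log2 (adjusted p = 0.401, limma), with a 95% interval from -0.62 to 0.07. With limma array weights it was -0.42 ± 0.12 (adjusted p = 0.0395), the 1 setting that called it. That setting called 1627 of the 9104 tested probe sets, against 336 in the main fit.

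The probe set of dome, the Unpaired receptor gene, read close to the filter limit of log2 4 on every array. Values were 5.21, 5.26 and 4.63 on plain food and lay between 4.98 and 5.09 on the other 8 arrays. The averaged paraquat change was 0.04 ± 0.14 log2 (adjusted p = 0.928, limma, interval from -0.26 to 0.34). A probe set this close to background can hide a change in the transcript, and the sign of this estimate turned with centring of the arrays on their medians (-0.03).

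Of the 5 Turandot genes with a probe set, TotC was the one readable on all arrays. TotB, TotE and TotF stayed below log2 4 on all 11 arrays, with highest values of 2.53, 2.11 and 2.11. TotZ lay between 2.11 and 2.67 on 10 arrays and at 4.32 on joint replicate 1, the array that stood apart in the 3' minus middle difference. These 4 genes were therefore not tested. In the RefSeq gene order of chromosome 3R, TotC sits between TotA and TotB, and TotZ follows TotB. TotA had no probe set here, so whether the TotC probes also bind its transcript was not tested. Of the Diedel relatives, Diedel2 stayed at or below 2.14 on all arrays and Diedel3 matched no probe set.

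Other JAK-STAT genes did not pass the test in any contrast. The list held 11 ligand, receptor, inhibitor and adaptor genes, of which 8 were tested. The ligand genes upd1 and upd2 lay at or below log2 2.33 and 2.11 on all arrays, so with upd3 unmatched no ligand of the pathway was readable in these heads. With paraquat averaged over nicotine, limma called 0 of the 8. An unadjusted p below 0.05 was reached by 1 of the 8 and by 1602 of the 9104 tested probe sets. Of the 8 estimates 7 were positive (median 0.23 log2), of which wdp at 0.07 turned negative when arrays were centred on their medians. Stam, an adaptor of endosomal receptor sorting, was at 0.39 ± 0.14 (adjusted p = 0.192), and ken, a repressor of some Stat92E targets, at 0.58 ± 0.27 (adjusted p = 0.319). The short receptor gene et, a known inhibitor of the pathway and a neighbour of dome on chromosome X, was at 0.20 ± 0.16 (adjusted p = 0.596), and Socs44A at 0.18 ± 0.21 (adjusted p = 0.731). The 2 tested probe sets of the phosphatase gene Ptp61F disagreed in sign, at 0.33 ± 0.18 and -0.26 ± 0.30 log2, and neither was called.

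Other genes known to respond to JAK-STAT were not called. Of 8 genes 5 were tested, limma called 0, 1 had an unadjusted p below 0.05, and 4 estimates were positive (median 0.17 log2). Such a p was reached by 1602 of the 9104 tested probe sets for paraquat averaged over nicotine. Tep4, a complement-like protein gene, was at 0.43 ± 0.12 log2 (adjusted p = 0.0871), its values running from 13.42 to 13.69 on paraquat-free arrays and from 13.81 to 14.20 on paraquat-fed ones. The groups did not overlap, as for 4.17% of tested probe sets in the higher direction. The transcription factor gene chinmo was at -0.40 ± 0.14 (adjusted p = 0.175) at 1 probe set and at -0.22 ± 0.24 (adjusted p = 0.702) at another. The gene vir-1, induced by viral infection through this pathway, was at 0.17 ± 0.18 (adjusted p = 0.695).

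Among the other stress pathways that feed into Turandot genes, p38c was readable on the paraquat-fed arrays alone. This gene of the p38 stress kinase family read below log2 4 on all 6 paraquat-free arrays and between 5.30 and 7.59 on the 5 paraquat-fed ones. With values under log2 4 set to 4, it was at least 6.43-fold higher with paraquat averaged over nicotine. It passed the filter on low values through its paraquat-fed arrays alone, so this is a description and limma's call of it is not read as a result. Of the 10 tested genes of that list no other was called, and the list's median was 0.12 log2. Mekk1, the kinase gene that acts upstream of Turandot induction, ran from 11.37 to 11.59 on paraquat-free and from 11.62 to 12.25 on paraquat-fed arrays. Such an order without overlap held for 4.17% of tested probe sets in the higher direction. Its change of 0.56 ± 0.14 log2 was not called (adjusted p = 0.0587, limma). Relish (Rel) was at 0.15 ± 0.14 (adjusted p = 0.644), and the JNK target puc at 0.32 ± 0.18 (adjusted p = 0.409).

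**Figure D5:**
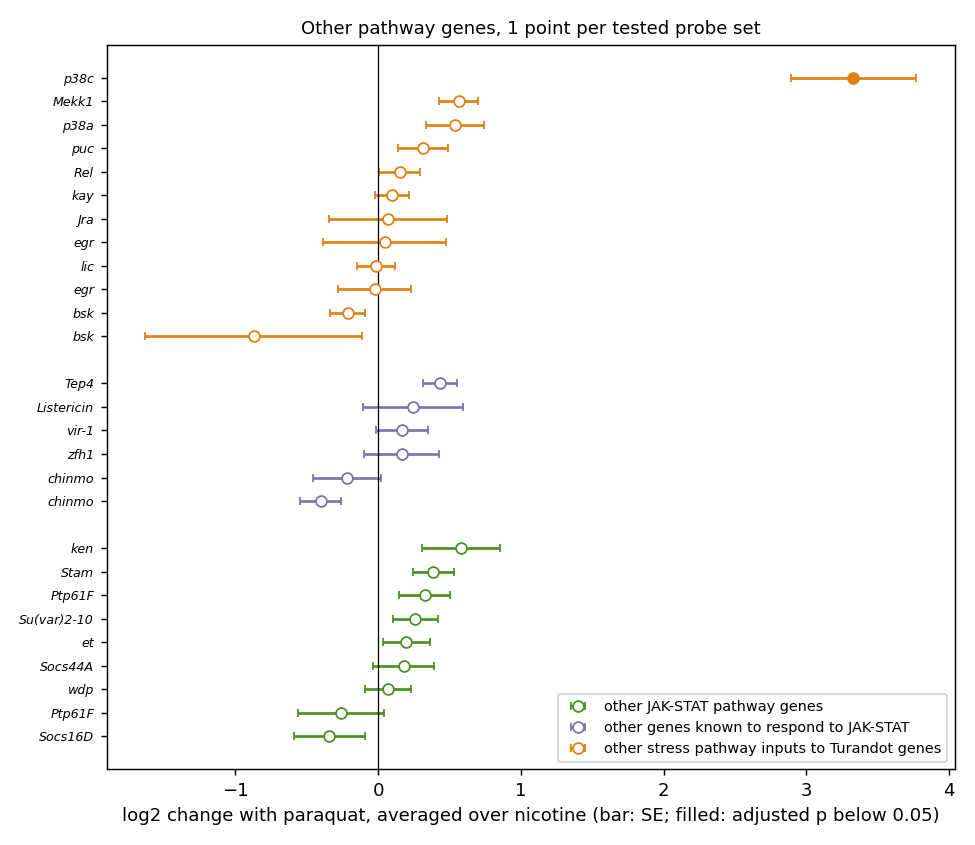
Log2 change with paraquat averaged over nicotine (horizontal axis, with SE) at each tested probe set of other JAK-STAT pathway genes, other genes known to respond to the pathway and other stress inputs to Turandot genes (vertical axis, grouped by colour). The filled point is p38c, which passed the filter on low values through its paraquat-fed arrays alone, and every other point is open.

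The arrays carried the label's tissue, and estimates for markers of the fat body, the known source of Turandot proteins, were mostly negative with paraquat. The photoreceptor genes Arr1, Arr2 and trp had a summed level between log2 16.31 and 16.75 on all arrays and a median paraquat change of 0.00 log2, with Arr1 at -0.14 and trp at 0.05. Fat body markers had a summed level of 17.93 to 18.11 in control, 17.56 to 17.57 with paraquat, 17.89 to 18.02 with nicotine and 17.14 to 17.96 with both. All 7 measured of 8 were tested, 6 estimates were negative, and the median was -0.56. Limma called 0 of the 7, and 6 had an unadjusted p below 0.05, among them the positive Apoltp (0.63 log2). Over all 9104 tested probe sets, 1602 had such a p. Lsp2, a larval storage protein gene also used by adult fat body, was at -1.36 ± 0.35 log2 (adjusted p = 0.0719), and the yolk protein gene Yp3 at -0.88 ± 0.29 (adjusted p = 0.140). The part of these markers in the Diedel and TotC results was not tested, and in pooled heads fewer cells of a type and less RNA per cell cannot be told apart.

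Haemocytes, the blood cells that make upd3 in other settings, gave a mixed reading. Their summed marker level was 14.87 to 15.01 in control, 14.32 to 14.57 with paraquat, 14.81 to 15.04 with nicotine and 14.16 to 14.66 with both, a sum in which Nplp2 (12.51 to 14.40) weighs most. The mean of their log2 values, in which each marker weighs the same, was 8.41 to 8.81 in control, 8.77 to 9.26 with paraquat, 8.66 to 9.13 with nicotine and 8.70 to 9.29 with both. Nplp2 fell by 1.003 ± 0.21 log2 (adjusted p = 0.0348, limma), the 1 call among the 12 markers, where 0.758% of tested probe sets were called lower. The change largest in size went the other way, NimC4, a phagocytic receptor gene, at 2.66 ± 0.68 (adjusted p = 0.0686), which read below log2 4 on 2 of the 6 paraquat-free arrays. Over the list 6 estimates were positive, 3 had an unadjusted p below 0.05 and the median was 0.09. Neuron markers had a median of -0.48 log2 (4 of 6 tested), with elav at -0.35 and brp at -0.62. That brp probe set read 4.04 to 5.79, near the filter limit. Another tested one, at 4.01 to 4.49, changed by -0.17. Glia markers had one of -0.07 (5 of 6), with wrapper at -0.34 and repo at -0.32, and muscle markers one of -0.12 (4 of 7), with Act88F at -0.39 and fln at -0.20. Limma called 0 neuron, glia, muscle and photoreceptor markers, while 3 neuron, 1 glia, 0 muscle and 0 photoreceptor markers had an unadjusted p below 0.05. Such a p was reached by 1602 of the 9104 tested probe sets.

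Markers of 2 organs outside the head were read as well. Digestive tract markers had summed levels of 9.34 to 13.06 in control, 10.92 to 11.59 with paraquat, 8.19 to 13.53 with nicotine and 13.30 to 16.27 with both. The median paraquat change had opposite signs in the 2 diets. Without nicotine it was, over the 5 tested genes, -0.40 log2, with 1 positive, and with nicotine it was 3.90, with 5 positive. Limma called 0 of the 5 in either contrast, with 0 and 4 at an unadjusted p below 0.05. For the interaction it called 0, with a median of 4.68 and 1 at an unadjusted p below 0.05. Of the 9104 tested probe sets, 960, 1050 and 112 had such a p in the same order. Mal-A1 was at 0.41 ± 1.05 (adjusted p = 0.968) without nicotine and at 3.69 ± 0.94 (adjusted p = 0.151) with it. Jon99Ci read 11.08 and 10.58 on joint replicates 1 and 2 and stayed below log2 4 on the other 9 arrays, so it was tested through those 2 arrays alone and no change is given for it. The medians and counts of the 5 tested genes include Jon99Ci, so they are descriptions and are not read as results. LManVI was below log2 4 on every array.

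Ovary markers stood apart on joint replicate 1, the array with the lowest TotC and Diedel values, and on nicotine replicate 1. Their summed levels were 4.55 to 5.61 in control, 4.54 to 4.90 with paraquat, 4.45 to 8.15 with nicotine and 4.66 to 8.16 with both. The probe set of osk read 7.98 on nicotine replicate 1 and 7.65 on joint replicate 1, against 2.64 to 3.54 on the other 9 arrays. The probe set of vas read 5.81 on joint replicate 1 and below log2 4 on the other 10, nanos was below log2 4 throughout, and otu ran from 2.35 to 4.56. Limma called 0 of the 2 that were tested, osk and otu, for paraquat averaged over nicotine, with 0 at an unadjusted p below 0.05. The osk probe set passed the filter on low values through nicotine replicate 1 and joint replicate 1 alone, and otu reached log2 4 on 4 arrays. These counts are therefore descriptions and are not read as results. The part of digestive tract and ovary markers in the TotC and Diedel results was not tested.

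The genes whose log2 values ran most like the 2 called members were picked by Pearson correlation over the 11 arrays among 7315 other genes. For TotC these were emp (r = 0.973), which encodes a CD36-family membrane protein, Nepl21 (0.966) and Phyhd1 (0.966). For Diedel they were CG7763 (0.960), the odorant-binding protein gene Obp57b (0.894) and CG6125 (0.892). The arrays share group differences and RNA quality, so these values describe likeness and carry no test. TotC and Diedel correlated at 0.833 over all 11 arrays and at 0.381 for the deviations of each array from its group mean.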

How the data were processed

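Per the submitters' processing notes, the authors made the deposited log2 values with GCRMA, which adjusts background, normalizes between arrays and summarizes the probes of a probe set. No version of it is recorded in the labels. Values were used as deposited. After removal of 183 Affymetrix control probe sets, those with at least 2 arrays at log2 4 or more were kept (9104). No pair of arrays was identical. Genes were named from the platform annotation through the RefSeq gene table of Release 6, and no coordinates are given because no genome build is named.

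A model with 1 mean per group was fitted with limma 3.58.1 in R 4.3.3 to all 11 arrays. It gave 8 contrasts, each adjusted by Benjamini-Hochberg over the 9104 probe sets. Tests are two-sided, and the number of arrays limits the precision. Errors after ± are SD for group means, which are given with n, and SE for changes. A list gene with several probe sets was counted at the one with the highest mean. Summed marker levels are log2 of summed linear values, with no filter. The code was tested on simulated data.

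Members and lists were chosen with earlier results of these data known. The rule names all members, called genes of other lists or else the 2 with the smallest p, and the 3 genes most like each called member. Outside it, Apoltp, et, Socs44A, Ptp61F, wdp, vir-1, Mekk1, Rel, puc, NimC4 and vas were named after their values were seen.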

Additional observations from a re-analysis of the deposited data

How the results depend on the processing

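For paraquat averaged over nicotine, the sign of Diedel (-3.38 to -2.68 log2) and TotC (-1.997 to -1.45) held in all 10 settings other than single arrays left out. Both lost their call with no low-value filter, where 18769 probe sets were adjusted over (0 members called, not 2), and TotC lost its call with a 3' minus 5' covariate (adjusted p = 0.0694 by limma, 1 member called). With array weights 2 members were called for paraquat without nicotine, 1 with nicotine and 1 for the joint exposure, where the main fit called 0. That setting called 765, 312 and 278 of the 9104 tested probe sets in the same order, against 31, 41 and 30 in the main fit. With a variance trend and robust prior 1 member was called for the joint exposure, where 72 probe sets were called. With each array left out in turn the members called ran from 0 to 2 for paraquat averaged, and from 0 to 1 for paraquat with nicotine and for the joint exposure. Both of the latter 1s were TotC without joint replicate 2, where 246 and 384 of 9068 probe sets were called. Leaving out a paraquat array leaves 1, assumed to vary like the other groups. The causes were not tested.

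Small values changed sign. The dome change was -0.0282 with centred arrays, -0.0668 with array weights, -0.0443 with the 3' minus 5' and -0.00778 with the 3' minus middle covariate, -0.0583 without control replicate 3 and joint replicate 1 together, and -0.0609 to 0.0968 with 1 array left out. The Diedel nicotine average ran from -0.67 to 0.00957 in the same way, and the interaction from -0.97 to 0.34 for TotC and from -0.50 to 0.86 for Diedel. The TotC interaction was 0.18 with the 3' minus middle covariate and 0.24 without the 2 arrays together. These last 2 settings were chosen after seeing the data. Over all probe sets, the count called for paraquat averaged was 336, against 137 with no filter, 1627 with array weights and 53 to 589 with 1 array left out. Centring moved the median of paraquat without nicotine from 0.01 to -0.10 log2.

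Same-numbered arrays of different groups correlated between -0.07 and 0.50 in their deviations from group means, with 9 of 15 pairs above 0.1. Pairs with different numbers correlated between -0.50 and 0.33, with 5 of 30 above 0.1. Of the 11 arrays, 9 correlated best with an array of their own number. Deviations within a group cancel out, so these correlations are not independent of each other. The 2 paraquat arrays mirror each other exactly. Control replicate 3 thus correlated at 0.497 with paraquat replicate 3 and at -0.497 with paraquat replicate 2, the 2 extremes given above. The main fit did not take the numbers as pairs, and what same-numbered arrays share was not tested. With the replicate number as a block 2 members were still called for paraquat averaged, TotC at -1.997 (adjusted p = 0.0461, limma) and Diedel at -2.99 (0.0295), and 0 in the other 7 contrasts.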

Other observations

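Within the joint group the members did not rank the arrays alike. TotC was highest on joint replicate 2 (13.05 log2, against 10.43 and 11.72), and so were the fat body marker Lsp2 (15.13, against 13.07 and 13.16) and the haemocyte-listed gene Nplp2 (13.78, against 12.51 and 13.04). Lsp2 on that array lay within the span of the paraquat-free arrays (14.89 to 15.39), whereas Diedel there (6.42) lay between the other 2 joint arrays (5.36 and 6.54). p38c was lowest among the paraquat-fed arrays on the same array (5.30). These genes were singled out after their values were seen, and no test was made.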
